A study of Mus musculus with 10 samples.

Results

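The 44 genes described here encode proteins of the photoreceptor cilium and of intraflagellar transport (IFT). The rule takes them by gene name and uses no measured value, and all 44 were found among the 54532 genes of the deposited table. By role, the list holds 11 genes of the IFT-B complex, 3 of the IFT-A complex, 3 kinesin-2 motor genes, 10 genes of the BBSome and its assembly, 13 genes of the transition zone and connecting cilium, and 4 genes that carry lipidated proteins to the cilium. RNA-seq was done on neural retinas of 2-month-old BALB/c mice, an inbred albino strain whose eyes lack the pigment that screens the retina from light. Per the labels, all mice were adapted to darkness for 12 hr and then spent 1 day either in normal light of 200 lux (NL, 5 retina samples, numbered 1, 4, 5, 7 and 8) or in light of 15000 lux for light damage (LD, 5 retina samples, numbered 1, 4, 6, 7 and 8). No transgene or mutation is named for either group, and the labels do not say how many mice or retinas entered a sample.

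The light-sensing outer segment of a rod or cone is a modified primary cilium, and everything it is built from passes through the narrow connecting cilium, which corresponds to the transition zone of other cilia. Kinesin-2 motors carry IFT-B trains outward and dynein-2 returns them with the help of IFT-A, while the BBSome acts as a cargo adaptor that moves membrane proteins out of the cilium. Mutations in many of these genes cause retinitis pigmentosa, Leber congenital amaurosis or syndromes in which blindness is joined by kidney disease and extra digits. The comparison asked how the transcripts of this machinery stood after 1 day of strong light.

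Cilium genes share a known regulator, the RFX transcription factors, which bind a motif named the X-box, and rod and cone genes share another, the homeobox factor CRX. To show the letters themselves, promoter windows from 250 bases before to 50 bases after the start of each gene were read from RefSeq on GRCm38.p6. A window was held for 40 of the 44 genes; *Ift80*, *Ift81*, *Ift122* and *Tmem67* had none. The X-box was searched as GTTNCC, then 1 to 3 of any base, then GGNAAC, and the CRX motif as TAATCC, both on either strand. A gene was counted if any of its windows held the letters. The X-box letters were in the windows of 4 of the 40 genes (10%), against 244 of all 27025 genes with a window (0.903%). The CRX letters were in those of 3 of the 40 (7.5%), against 2199 of the 27025 genes (8.14%). No window held both, and a match is a description of letters, not a measured binding site. The X-box windows are shown because they include *Ift57*, the gene with the largest increase, beside *Bbs7*, which fell. The sequences are written 5′ to 3′ on the strand of the gene, trimmed around the match, with the motif in capitals; a CRX match on the other strand reads GGATTA.
Ift57, chr16:49699184-49699262, plus strand: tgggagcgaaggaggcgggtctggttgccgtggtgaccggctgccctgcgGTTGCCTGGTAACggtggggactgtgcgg
Bbs7, chr3:36613448-36613560, minus strand: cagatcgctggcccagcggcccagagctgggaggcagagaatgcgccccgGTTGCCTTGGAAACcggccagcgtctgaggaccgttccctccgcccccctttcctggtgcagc
Mks1, chr11:87853141-87853214, plus strand: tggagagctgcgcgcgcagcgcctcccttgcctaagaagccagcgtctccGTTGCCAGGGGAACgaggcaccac
Ahi1, chr10:20952552-20952581, plus strand: cccgtccctagtctgaGTTACCTAGGCAAC

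The X-box letters began 60 bases before the RefSeq start of *Ift57*, 121 before that of *Bbs7* and 24 before that of *Mks1*, and lay just after the start of *Ahi1*. In *Ift57* they fall inside the first exon as GENCODE M21 draws it. These 4 genes did not move together: *Ift57* rose, *Bbs7* fell, and *Mks1* and *Ahi1* had log2 fold changes of -0.45 (adjusted p = 0.0137, limma) and -0.08 (adjusted p = 0.365, limma). All windows with the CRX letters are shown. *Rpgrip1* and *Unc119* were among the genes with the largest decreases, and *Bbs1* fell too. *Fam161a*, with the largest decrease, and *Arl13b* and *Bbs9*, which also fell by more than 2-fold, had no CRX letters in their windows. The *Unc119* window precedes a RefSeq start inside the gene, whose own start in the files is at 78343482. That of *Rpgrip1* precedes a RefSeq start inside the gene too, and its motif, 28 bases before that start, lies within an exon in GENCODE M21.
Rpgrip1, chr14:52110851-52110880, plus strand: aaagagttaacagctaaaaggcctGGATTA
Unc119, chr11:78345416-78345521, plus strand: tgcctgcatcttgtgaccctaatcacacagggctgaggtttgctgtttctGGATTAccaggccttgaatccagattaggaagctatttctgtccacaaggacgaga
Bbs1, chr19:4906769-4906874, minus strand: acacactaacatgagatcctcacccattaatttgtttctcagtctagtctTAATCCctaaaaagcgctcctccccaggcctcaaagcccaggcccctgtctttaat

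The files give FPKM, in which fragments on a gene are scaled by its length and by the size of the library, from 21343389 to 26832535 recovered reads in the NL retinas and from 18965090 to 23378090 in the LD retinas. The fewest reads behind any value of the 44 genes was 164. Rod markers, which define most cells of the neural retina, were high in all NL retinas, with a summed level of 10585 to 12711 FPKM over 12 genes. All 12 fell after LD, to a sum of 1659 to 3178 FPKM, whereas none of 8 bipolar cell markers and none of 10 amacrine and ganglion cell markers passed an adjusted p under 0.01 in limma, with medians of the log2 fold change of -0.13 and -0.08. In each of these lists 1 gene had an unadjusted p under 0.05, and limma-voom on the recovered reads also called 0. In bulk retina, a change in cell number and a change in RNA per cell cannot be told apart, in photoreceptors or in other cells. The cell types behind a value cannot be told either, and both limits hold for every value below. By histology, the paper saw no obvious degeneration in BALB/c retinas after 1 day of this light, and significant degeneration after longer exposure. The number of cells in the sequenced samples was not tested. Myeloid markers moved the other way: 7 of 10 rose, and their summed level went from 23.8 to 41.0 FPKM in NL to 57.4 to 132 FPKM in LD. The part of the rod and myeloid markers in the results on cilium genes was not tested.

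Some retinas stood apart from others of their group. *Xist*, the RNA of the inactive X chromosome of female cells, was at 159 to 194 FPKM in NL-4, NL-8, LD-4 and LD-6 and at 0.118 FPKM or less in the other 6 retinas, and the Y-linked gene *Eif2s3y* was listed at 0 in the first 4 and was at 27.1 to 34.9 FPKM in the other 6. The labels give no sex. The groups were balanced for it, with 2 NL and 2 LD retinas with *Xist*. Reads of NL-5 and NL-7, of LD-1 and LD-7, and of LD-4 and LD-6 differed from each other by a chi-square per gene of 2.52 to 3.41, against 10.9 to 38.5 for the other 17 pairs within a group. All 10 retinas were kept as separate samples, and the counts of genes that fell, and *Ift57*, are given below without each of these 3 pairs.

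After LD most cilium genes stood lower, by modest amounts, and a few stood out. Of the 44 genes, 40 had a negative log2 fold change of LD against NL, with a median of -0.37 and a range of -1.79 to 1.47. Over all 24508 genes tested, the median was -0.01 and 51.4% were negative. With an adjusted p under 0.01 and a change above 2-fold, 5 cilium genes fell: *Fam161a*, *Rpgrip1*, *Unc119*, *Arl13b* and *Bbs9*. The background for such a decrease was 2.37% of all genes, and 5 of 44 is 11.4%. By the same rule 1 gene rose, *Ift57*, where the background was 4.13%, and 6.51% of all genes were called in either direction. With no minimum fold, 17 of the 44 (38.6%) fell at an adjusted p under 0.01, against 7.74% of all genes, and 1 rose, against 9.3%. At an adjusted p under 0.05, 28 (63.6%) were lower and 2 higher, against 13.4% and 14.5% of all genes. Every LD retina lay below every NL retina in 20 of the 44 genes (45.5%), against 10.6% of all genes, and above in 1, against 11.8%. In the other 23 genes the groups overlapped. Below, fell and rose refer to an adjusted p under 0.01 in limma.

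**Figure D1:**
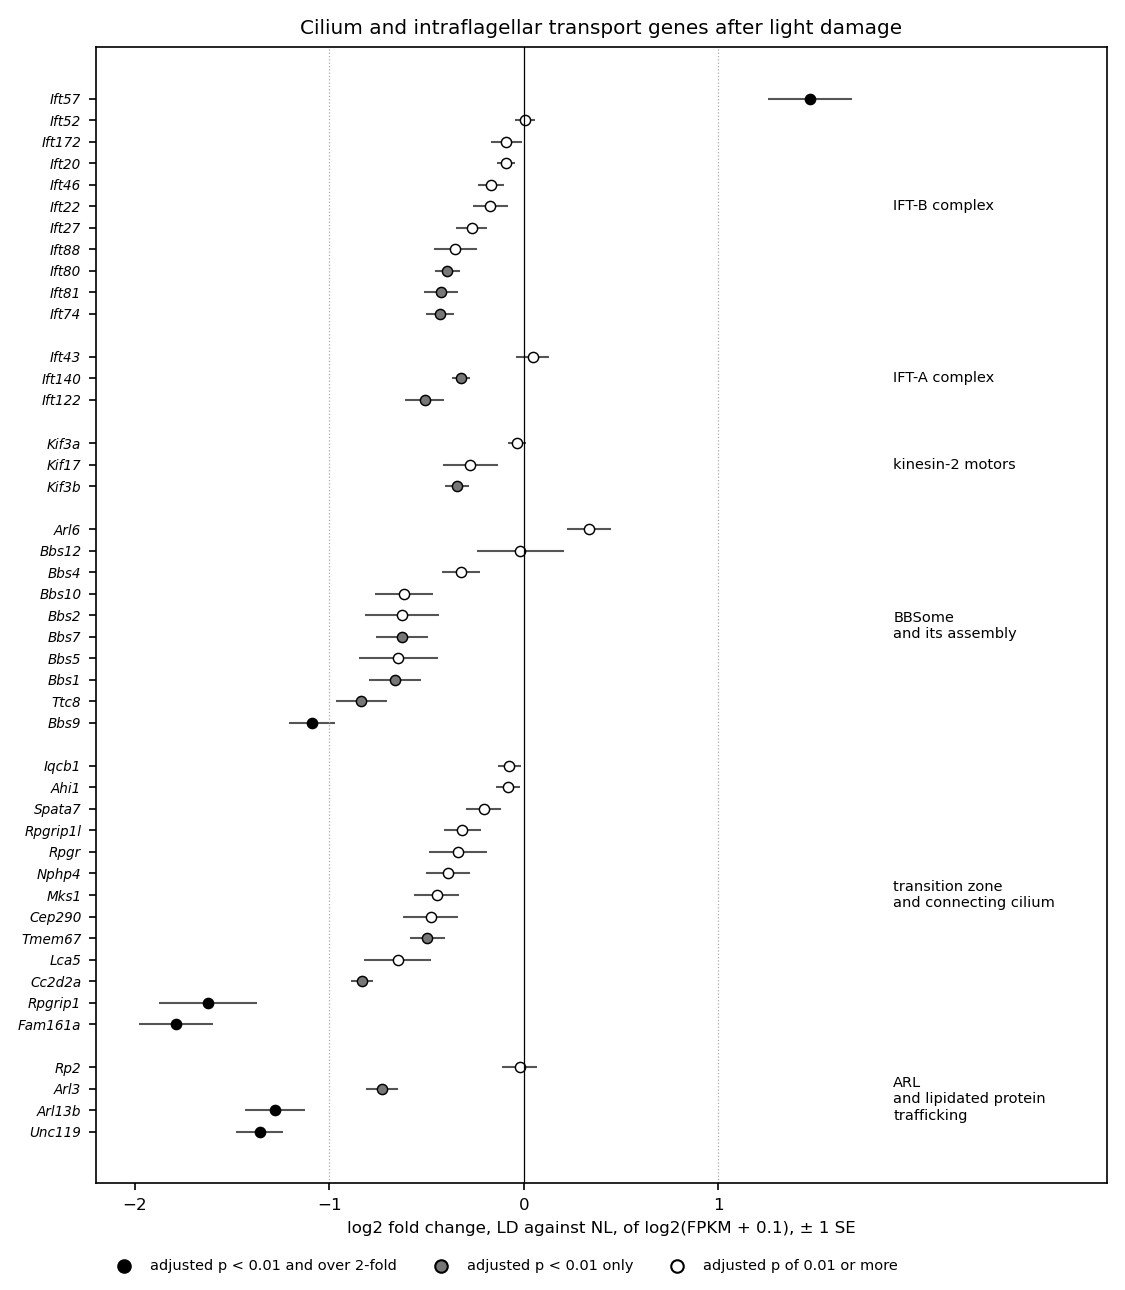
Log2 fold change of LD against NL for each of the 44 genes, grouped by role, with bars of 1 standard error from limma (5 NL and 5 LD retinas) and dotted lines at 2-fold. Filled black points pass an adjusted p under 0.01 and 2-fold, grey points the adjusted p only; Ift57 lies alone on the right at 1.47 and Fam161a farthest left at -1.79.

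The strongest decreases were in 2 proteins of the connecting cilium. *Fam161a* encodes a microtubule-binding protein of the connecting cilium and basal body that is mutated in retinitis pigmentosa, and it lies on chromosome 11 from 23007531 to 23030788 (GRCm38, as are all gene positions). It was at 81.1, 73.5, 79.5, 80.0 and 73.6 FPKM in NL-1, NL-4, NL-5, NL-7 and NL-8, and at 31.6, 14.6, 17.0, 28.5 and 24.9 FPKM in LD-1, LD-4, LD-6, LD-7 and LD-8; the same order of retinas holds for each gene below. The highest LD retina was under the lowest NL retina by a wide margin, and LD-4 and LD-6 were the lowest. Its mean was 77.5 ± 3.69 FPKM (SD, n = 5) in NL and 23.3 ± 7.29 FPKM (SD, n = 5) in LD, which is -1.79 on the log2 scale (SE 0.19, limma adjusted p = 6.79e-05). *Fam161a* went from the 3rd to the 10th highest mean level of the 44 genes.

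*Rpgrip1* encodes the scaffold that holds the GTPase regulator RPGR in the connecting cilium, on chromosome 14 from 52110704 to 52163546. It was at 72.6, 59.7, 65.1, 64.8 and 83.2 FPKM in the NL retinas and at 36.0, 13.1, 15.8, 29.8 and 24.2 FPKM in the LD retinas. All LD values lay below all NL values, and LD-4 and LD-6 were again lowest. With 5 retinas in each group, the NL mean was 69.1 ± 9.15 FPKM (SD) and the LD mean 23.8 ± 9.53 FPKM (SD), or -1.62 on the log2 scale (SE 0.25, limma adjusted p = 7.71e-04). Over 1057 bases (8.70% of its exonic bases) *Rpgrip1* overlaps exons of *Supt16* on the opposite strand, a gene of chromatin transcription at 29.9 FPKM in NL and 23.7 FPKM in LD. Since the strand of counting is not given in the sources used here, reads of that stretch could belong to either gene.

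Among the other 11 genes of the transition zone and connecting cilium, *Cc2d2a* and *Tmem67* fell, and no gene rose. *Cc2d2a*, a transition zone protein mutated in Joubert syndrome, was at 14.9, 16.3, 16.1, 17.2 and 15.5 FPKM in NL and 9.38, 8.32, 8.32, 9.47 and 9.28 FPKM in LD. Its 5 LD values lay far below the NL values, and LD-4 and LD-6 were again the lowest. The log2 fold change of -0.83 (SE 0.06) had the smallest adjusted p of the 44 genes, 3.0e-06 in limma. *Tmem67*, which encodes the membrane protein meckelin of the transition zone, fell by 0.50 on the log2 scale (SE 0.09, limma adjusted p = 0.00204); 289 of its exonic bases overlap *Rbm12b2* on the opposite strand, which went from 8.82 to 6.01 FPKM.

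A further 5 genes of this class had adjusted p-values of 0.01 to 0.05 in limma. *Lca5*, which encodes the ciliary protein lebercilin, was at 13.7, 8.98, 14.1, 12.5 and 13.6 FPKM in NL and 9.81, 6.11, 6.05, 9.08 and 9.31 FPKM in LD, so that the lowest NL retina lay among the LD retinas (log2 fold change -0.65, adjusted p = 0.0173 in limma). *Cep290*, the large protein that links membrane and microtubules in the transition zone, was at 21.4, 19.9, 21.6, 21.4 and 22.6 FPKM in NL and 19.1, 12.3, 11.5, 19.3 and 16.1 FPKM in LD. Its groups did not overlap, but 2 LD retinas were within 1 FPKM of the lowest NL retina and the other 3 were lower by more (log2 fold change -0.48, adjusted p = 0.0276 in limma). The remaining 3 were *Mks1* (-0.45) and *Nphp4* (-0.39), 2 further transition zone proteins, and *Rpgrip1l* (-0.32), a relative of *Rpgrip1* that is used in cilia of many tissues.

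The last 4 genes of the class did not pass an adjusted p of 0.05. *Rpgr*, the binding partner of RPGRIP1 and an X-linked gene of retinitis pigmentosa, was at 11.5, 9.72, 11.8, 12.3 and 13.8 FPKM in NL and 11.8, 6.79, 8.15, 11.3 and 9.34 FPKM in LD. Its groups overlapped, with 2 LD retinas among the NL values (log2 fold change -0.34, SE 0.15, limma adjusted p = 0.123). *Spata7*, which acts with RPGRIP1 in the connecting cilium, had a log2 fold change of -0.21, *Ahi1*, which encodes jouberin, one of -0.08, and *Iqcb1*, which encodes the CEP290 partner nephrocystin-5, one of -0.08. Within a retina, the ratio of *Rpgrip1* to *Rpgr* FPKM was 5.27 to 6.32 in NL and 1.94 to 3.06 in LD. This ratio, and the others below, were chosen after the values were seen, so they are descriptions without a test.

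Lipidated proteins, such as the transducin subunits of rods and cones, reach the outer segment bound to carriers that release them on the command of the small GTPase ARL3. *Unc119*, which encodes the carrier of acylated transducin, had the highest level of the 44 genes in both groups and lies on chromosome 11 from 78343482 to 78349164. It was at 601, 588, 609, 578 and 545 FPKM in NL and 266, 181, 195, 239 and 273 FPKM in LD. Even the highest LD value was near the middle between 0 and the lowest NL value, and the NL values varied little. Means were 584 ± 25.1 FPKM (SD, n = 5) in NL and 231 ± 41.3 FPKM (SD, n = 5) in LD, and the log2 fold change was -1.36 (SE 0.12, limma adjusted p = 2.0e-05); with quantile normalization the log2 fold change was -0.99.

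*Arl13b* encodes the ciliary GTPase that activates ARL3, on chromosome 16 from 62793685 to 62847040. Its levels were 20.5, 18.4, 19.1, 17.2 and 22.7 FPKM in NL and 10.8, 5.76, 6.61, 9.08 and 8.61 FPKM in LD, without overlap. The log2 fold change was -1.28 (SE 0.16, limma adjusted p = 1.66e-04). *Arl3* itself was second in level, at 216, 210, 215, 222 and 199 FPKM in NL and 140, 111, 119, 125 and 150 FPKM in LD, also without overlap, and fell by 0.73 on the log2 scale (SE 0.08, limma adjusted p = 9.62e-05). The GTPase-activating protein that switches ARL3 off, *Rp2*, was at 3.42 to 4.09 FPKM in NL and 3.12 to 4.22 FPKM in LD, a log2 fold change of -0.02 (SE 0.09, limma adjusted p = 0.893). So carrier, GTPase and activator were lower after LD, and *Rp2* had overlapping values.

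The carrier and the activator were lower relative to the GTPase as well. The ratio of *Unc119* to *Arl3* FPKM within a retina was 2.60 to 2.83 in NL and 1.62 to 1.91 in LD. That of *Arl13b* to *Arl3* was 0.0775 to 0.114 in NL and 0.0517 to 0.0773 in LD, ranges that barely miss each other.

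**Figure D2:**
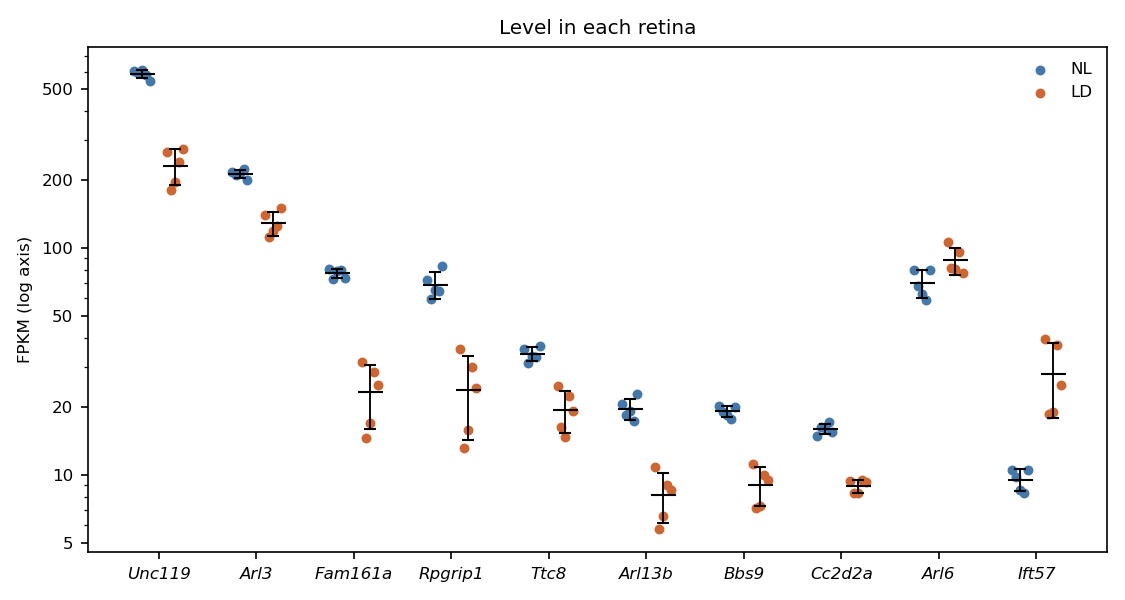
Level of 10 of the genes in every retina, in FPKM on a log axis, with the mean and SD of 5 NL (blue) and 5 LD (orange) retinas as black lines. The 8 genes on the left have all LD retinas below all NL retinas, Arl6 overlaps, and Ift57 has all LD retinas above.

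The BBSome genes were lower as a group, with 4 of 10 that fell and 8 of 10 lower at an adjusted p under 0.05. *Bbs9*, a core subunit, lies on chromosome 9 from 22475715 to 22888280. It was at 20.2, 19.0, 18.4, 17.7 and 19.9 FPKM in NL and 11.2, 7.17, 7.30, 10.05 and 9.52 FPKM in LD. All LD retinas were clearly below all NL retinas, with LD-4 and LD-6 lowest (log2 fold change -1.09, SE 0.12, limma adjusted p = 7.98e-05). This decrease lies near the 2-fold limit: without LD-4 and LD-6 it was -0.89, with TPM scaling -0.99, and without the authors' factor per retina -0.95, each with an adjusted p under 0.01.

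*Ttc8*, also named *Bbs8* and a subunit of the complex, was at 35.7, 31.0, 33.6, 33.0 and 37.1 FPKM in NL and 24.6, 16.3, 14.7, 22.3 and 19.1 FPKM in LD, and fell by 0.83 on the log2 scale (SE 0.13, limma adjusted p = 7.75e-04). *Bbs1*, which contacts ARL6 on the membrane, was at 27.8, 23.1, 23.3, 23.0 and 25.7 FPKM in NL and 19.97, 12.5, 12.5, 18.3 and 15.4 FPKM in LD, and fell by 0.66 (SE 0.13, limma adjusted p = 0.00373). *Bbs7*, another subunit, fell by 0.63 (SE 0.13, limma adjusted p = 0.00531). None of these 3 overlapped between the groups. The call of *Bbs7* was lost in 14 of 28 other fits, 6 of them with 1 retina left out (NL-1, NL-5, NL-7, LD-4, LD-6 or LD-8), with adjusted p-values of up to 0.048 in limma. That of *Bbs1* was lost in 9, among them those without NL-1 and without NL-8, with adjusted p-values of up to 0.0437 in limma.

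*Bbs5* and *Bbs2*, also subunits, had log2 fold changes as large, -0.64 and -0.62, but their LD retinas were spread widely. *Bbs5* was at 33.5, 30.2, 34.3, 32.9 and 31.1 FPKM in NL and 30.2, 13.3, 15.1, 26.5 and 23.3 FPKM in LD. LD-1 reached the NL range while LD-4 and LD-6 were far below it, and the adjusted p was 0.0383 in limma. *Bbs2* had an adjusted p of 0.0311 and *Bbs4*, a subunit that binds the centriolar satellites, of 0.0292 with a log2 fold change of -0.32, both in limma.

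*Bbs10* and *Bbs12* encode chaperonin-like proteins that assemble the BBSome. *Bbs10* was low, at 3.35 to 6.22 FPKM in NL and 2.68 to 3.50 FPKM in LD (log2 fold change -0.62, limma adjusted p = 0.0115). *Bbs12* was at 16.6, 11.9, 14.3, 13.96 and 15.9 FPKM in NL and 21.5, 9.82, 10.1, 20.3 and 13.6 FPKM in LD. The LD values of *Bbs12* enclosed the NL values, with LD-1 and LD-7 above and LD-4 and LD-6 below, and the log2 fold change was -0.02 (SE 0.22, limma adjusted p = 0.964).

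*Arl6*, also named *Bbs3*, encodes the GTPase that recruits the BBSome to membranes, and its log2 fold change was positive. It was at 80.1, 68.1, 62.9, 58.8 and 80.1 FPKM in NL and 106, 81.7, 81.0, 96.0 and 77.4 FPKM in LD. LD-8 lay within the range of NL, and the other 4 exceeded it. The log2 fold change of 0.34 (SE 0.11) had a limma adjusted p of 0.0482, so it did not pass 0.01. Over 28 other fits the log2 fold change went from 0.14 to 0.47 and the adjusted p from 0.00847, without the factor per retina, to 0.37, over the 4 retinas with *Xist*; it was 0.05 or more in 18 of the 28. The log2 fold change was 0.20 without LD-1 and LD-7, 0.21 without NL-5 and NL-7, and 0.26 with the closest pairs averaged.

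IFT-B was the class with the most genes near no change and with the only gene that rose. *Ift57*, a subunit of the outer part of the complex that is also known as a partner of huntingtin-interacting protein, lies on chromosome 16 from 49699233 to 49765126. It was at 10.5, 9.82, 8.57, 8.34 and 10.6 FPKM in NL and 40.0, 18.5, 19.0, 37.4 and 25.0 FPKM in LD. Every LD retina lay above every NL retina, LD-1 and LD-7 were highest and LD-4 and LD-6 lowest. The LD mean of 28.0 ± 10.1 FPKM (SD, n = 5) was 2.93 times the NL mean of 9.55 ± 1.04 FPKM (SD, n = 5), and the log2 fold change was 1.47 (SE 0.22, limma adjusted p = 5.58e-04). Its level moved from the 30th to the 7th highest of the 44 genes. An antisense transcript, *Gm15518*, shares 225 exonic bases with *Ift57* and was at 0.194 FPKM in NL and 0.448 FPKM in LD, far below *Ift57* in both groups.

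The other 10 IFT-B genes lay between -0.43 and 0.01 on the log2 scale. *Ift74* and *Ift81* encode a pair of subunits that bind tubulin as cargo. *Ift74* was at 10.5, 10.9, 10.5, 9.84 and 11.4 FPKM in NL and 8.34, 7.30, 6.95, 8.79 and 8.001 FPKM in LD, without overlap (log2 fold change -0.43, SE 0.07, limma adjusted p = 0.00104). *Ift81* fell by nearly the same amount, -0.43 (SE 0.09, limma adjusted p = 0.00388), and the ratio of *Ift74* to *Ift81* FPKM was 0.712 to 0.782 in NL and 0.666 to 0.802 in LD, overlapping ranges. The call of *Ift81* was lost in 12 of 28 other fits, among them those without NL-1, NL-4, NL-8 or LD-6, with adjusted p-values of up to 0.0595 in limma. *Ift80*, an outer subunit mutated in a skeletal ciliopathy, fell by 0.39 (SE 0.06, limma adjusted p = 0.00104).

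*Ift88*, the core subunit whose loss in mice disrupts outer segments, had a log2 fold change of -0.35 with an adjusted p of 0.0345, and *Ift27*, a small GTPase linked to BBSome exit, one of -0.27 with an adjusted p of 0.0261, both in limma. The remaining 5 did not pass 0.05: *Ift22* (-0.17), a GTPase-like subunit, *Ift46* (-0.17) and *Ift52* (0.01), both of the core, *Ift172* (-0.09), the largest outer subunit, and *Ift20* (-0.09), which also serves at the Golgi. *Ift52* was at 15.0, 13.1, 13.5, 12.8 and 14.2 FPKM in NL and 13.9, 13.3, 14.1, 14.4 and 13.2 FPKM in LD, with all LD values inside the NL range. *Ift20*, which binds IFT57 within the complex, was at 40.0, 42.9, 38.6, 43.3 and 39.4 FPKM in NL and 37.9, 38.4, 36.3, 38.1 and 41.1 FPKM in LD. As a result the ratio of *Ift57* to *Ift20* FPKM was 0.193 to 0.268 in NL and 0.483 to 1.06 in LD.

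**Figure D3:**
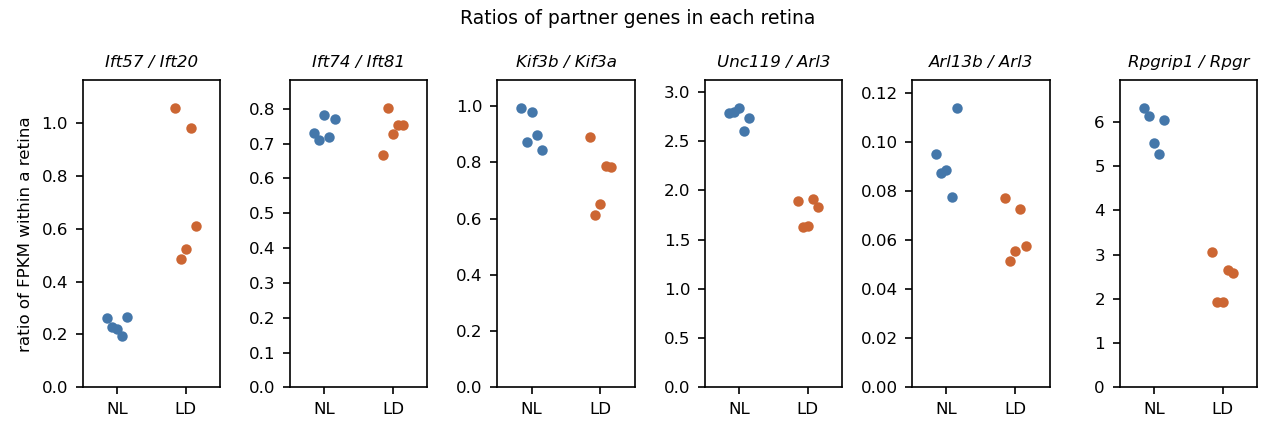
Ratio of the FPKM of 2 partner genes in each retina, with 1 panel per pair, 5 NL (blue) and 5 LD (orange) points and axes from 0. The ratios of Ift57 to Ift20 lie higher in LD, those of Unc119 and Arl13b to Arl3 and of Rpgrip1 to Rpgr lower, and those of Ift74 to Ift81 and Kif3b to Kif3a overlap.

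Of the 3 IFT-A genes, *Ift122* and *Ift140* fell and *Ift43* was near no change. *Ift140*, a core subunit mutated in retinal dystrophy, was at 9.98, 10.01, 9.84, 10.1 and 10.4 FPKM in NL and 8.57, 7.62, 7.65, 8.40 and 7.97 FPKM in LD. Its NL values were close together, and the log2 fold change of -0.32 (SE 0.05) had a limma adjusted p of 4.56e-04. *Ift122*, also of the core, was at 8.88, 8.26, 7.02, 7.64 and 8.24 FPKM in NL and 6.36, 4.91, 4.65, 6.35 and 5.85 FPKM in LD, and fell by 0.51 (SE 0.10, limma adjusted p = 0.00370). This call was lost in 10 of 28 other fits, among them those without NL-1, NL-4, NL-8 or LD-4, with adjusted p-values of up to 0.0676 in limma. *Ift43*, the smallest of the 3, was at 13.6 to 17.9 FPKM in NL and 14.6 to 16.9 FPKM in LD (log2 fold change 0.05, limma adjusted p = 0.745).

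*Kif3b* and *Kif3a* encode the motor subunits of 1 heterodimer. *Kif3b* was at 23.8, 22.3, 23.6, 22.7 and 22.0 FPKM in NL and 20.1, 16.2, 16.5, 18.8 and 18.7 FPKM in LD, and fell by 0.34 on the log2 scale (SE 0.06, limma adjusted p = 0.00217). *Kif3a* was at 23.9, 25.6, 24.1, 25.2 and 26.1 FPKM in NL and 22.6, 26.4, 25.3, 23.9 and 23.8 FPKM in LD, with overlapping values and a log2 fold change of -0.03 (limma adjusted p = 0.644). The ratio of *Kif3b* to *Kif3a* FPKM was 0.844 to 0.993 in NL and 0.614 to 0.890 in LD, overlapping ranges, and the difference between their fold changes was not tested. *Kif17*, the homodimeric kinesin-2, was low at 1.85 to 2.76 FPKM in NL and 1.65 to 2.45 FPKM in LD (log2 fold change -0.27, limma adjusted p = 0.188).

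By class, the median log2 fold change was -1.003 for the 4 genes of lipidated protein transport, -0.63 for the 10 BBSome genes, -0.45 for the 13 genes of the transition zone and connecting cilium, -0.32 for IFT-A, -0.27 for the kinesins and -0.17 for IFT-B. These medians were negative under every scaling tried, although the value for IFT-B shrank to -0.07 with TPM scaling and to -0.04 without the authors' factor per retina. With those 2 scalings the median of all genes was 0.09 and 0.11, against -0.01, and with either of them 33 rather than 40 of the 44 genes were negative.

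**Figure D4:**
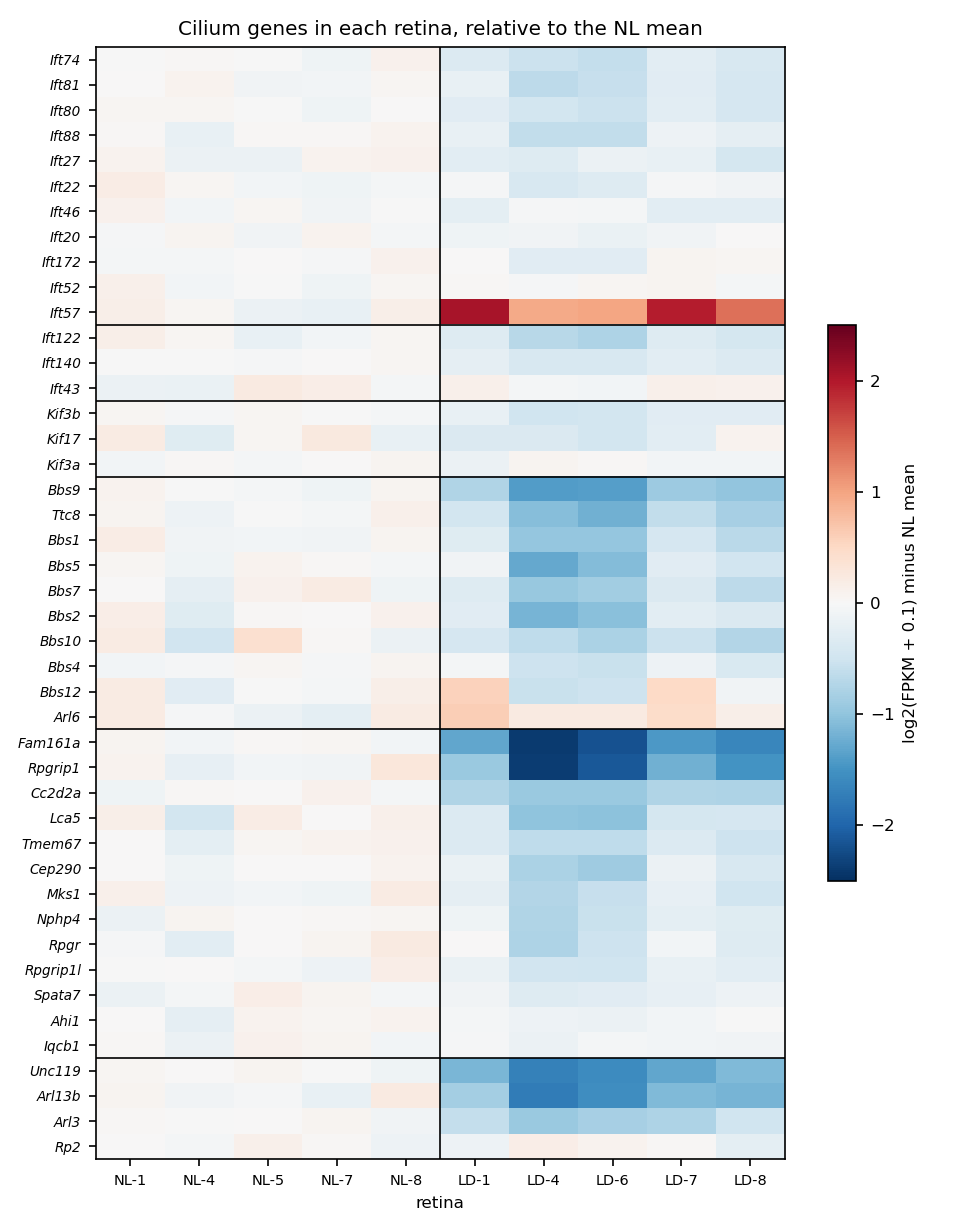
Heat map of the 44 genes (rows, grouped by role and ordered by log2 fold change) in the 10 retinas (columns), as log2(FPKM + 0.1) minus the NL mean of the gene. The NL cells lie between -0.48 and 0.40, LD-4 and LD-6 are the darkest blue columns in most rows, and Ift57 and Arl6 are the 2 rows above 0 in all LD retinas.

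The genes varied more among LD than among NL retinas. The coefficient of variation was larger in LD in 34 of 44 genes, with a median of 7.06% in NL and 13.5% in LD. Much of this lay between LD-4 and LD-6 and the rest: both were below the other 3 LD retinas in 35 of 44 genes (79.5%), against 22.3% of all genes tested and 12 of the 12 rod markers. Both were above the others in 3 (6.82%), against 20% of all genes. LD-4 was the lowest LD retina in 24 genes and LD-6 in 14, and LD-1 was the highest in 25.

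LD-4 and LD-6 are the LD retinas with *Xist*, and they are also among the pairs whose reads were closest, so sex and any other feature that this pair shares cannot be told apart. Over the 6 retinas without *Xist*, the median log2 fold change of the 44 genes was -0.28, with 38 negative, and over the 4 retinas with *Xist* it was -0.56, with 37 negative. The subset without *Xist* held 3 NL and 3 LD retinas, and that with *Xist* held 2 NL and 2 LD retinas. The 5 genes called lower by 2-fold, and *Ift57*, were chosen in the fit over all retinas. Their values within the subsets are therefore not independent support. All 5 had an adjusted p under 0.01 in limma within both subsets. LD-4 and LD-6, a close pair, were the only LD retinas with *Xist*. The subset without *Xist* held the close pairs NL-5 and NL-7, and LD-1 and LD-7. If the samples of a close pair are not independent, the p-values within the subsets are too small, and this was not tested. In the retinas without *Xist* the values were -1.51 for *Fam161a*, -1.18 for *Rpgrip1*, -1.20 for *Unc119*, -0.99 for *Arl13b* and -0.87 for *Bbs9*, and in those with *Xist* they were -2.21, -2.28, -1.59, -1.71 and -1.42. *Ift57* was 1.87 higher on the log2 scale without *Xist* (limma adjusted p = 0.00162) and 0.88 higher with it (limma adjusted p = 0.0039).

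The difference between the subsets was tested as an interaction in limma over all genes. None of the 44 genes had an adjusted p under 0.05 for it, although 24 of 44 had an unadjusted p under 0.05, against 3699 of 24508 genes, of which 249 passed after adjustment. In 36 of 44 genes, *Ift57* among them, the log2 fold change was lower in the retinas with *Xist* than in those without. The same held for 12788 of all 24508 genes tested. The median difference was -0.34 for the 44 genes and -0.018 for all genes tested. With detection of *Xist* as a covariate, 23 rather than 17 genes fell at an adjusted p under 0.01. The 6 calls above 2-fold kept an adjusted p under 0.01. Their log2 fold changes could not move in this fit, because *Xist* was balanced between the groups. Of all 24508 genes tested, 601 rather than 582 fell by more than 2-fold with this covariate. The number of all genes that fell with no minimum fold was not counted in this fit, so the 23 has no background beside it. Without LD-4 and LD-6, 12 genes fell, 4 of them above 2-fold, and *Ift57* had a log2 fold change of 1.803. Without LD-1 and LD-7, the LD retinas in which *Ift57* was highest, 24 genes fell, 6 of them above 2-fold, and *Ift57* was at 1.11. Without NL-5 and NL-7, 12 genes fell, 5 of them above 2-fold, and *Ift57* was at 1.36. *Ift57* had a limma adjusted p under 0.01 in all 3 of these fits. The background moved as well. Of all genes tested, 367 of 24559, 712 of 24550 and 342 of 24638 fell by more than 2-fold in these 3 fits, in that order. With no retina left out, 582 of 24508 did. The share of all genes that fell with no minimum fold was not counted in these fits.

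Besides *Rpgrip1*, *Tmem67* and *Ift57*, 7 genes share exonic bases with a neighbour of the same or the other strand, each over less than 8% of their exonic bases. The longest stretch is 881 bases of *Cep290* with *4930430F08Rik*, which was at 3.08 FPKM in NL and 2.63 FPKM in LD. *Rpgr* shares 208 bases with *Srpx*, *Bbs4* 194 with *Adpgk*, *Kif17* 74 with *Sh2d5*, *Ift88* 67 with *Ift88os*, *Arl6* 55 with *4930547E14Rik* and *Bbs12* 32 with *Cetn4*, a centrin gene that rose from 1.22 to 2.55 FPKM (log2 fold change 0.98, limma adjusted p = 0.00155). *Stx19* lies on the opposite strand within *Arl13b* without shared exons and fell from 2.54 to 0.927 FPKM (log2 fold change -1.45, limma adjusted p = 0.0054). Also without shared exons, *Kcnab2*, opposite *Nphp4*, fell from 54.38 to 41.35 FPKM (-0.39, limma adjusted p = 0.00294). *Tmem204*, opposite *Ift140*, fell from 1.29 to 0.596 FPKM (-0.98, limma adjusted p = 0.0014). *Gm20691*, on the strand of *Ift80*, rose from 0.308 to 0.906 FPKM (1.41, limma adjusted p = 0.00778). What these neighbours added to the counts was not tested.

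Levels also differed among the genes, per kilobase of gene. Under NL, 15 genes had a mean under 10 FPKM, 24 lay at 10 to 60 FPKM, and 5 were above 60 FPKM: *Unc119*, *Arl3*, *Fam161a*, *Arl6* and *Rpgrip1*, in that order. *Unc119* and *Arl3* did not overlap with each other or with any of the rest, whereas *Fam161a*, *Arl6* and *Rpgrip1* overlapped in their NL values. *Spata7* was lowest in both groups, at 2.12 ± 0.18 FPKM in NL and 1.82 ± 0.13 FPKM in LD (SD, n = 5 each). Across the 44 genes, Spearman's correlation of the NL level with the log2 fold change was -0.35, and over all genes tested it was -0.14; these points share libraries, and no test was made. Of the 5 genes with the highest levels, 4 fell, and *Arl6* did not pass an adjusted p of 0.01.

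For context, 58 further genes of the cilium were read from the same fit. The list holds other IFT and dynein-2 genes, other BBSome and transition zone genes, other ciliary trafficking genes, and genes of the basal body and axoneme. Their median log2 fold change was -0.33, with 50 of 58 negative; 23 fell and 1 rose at an adjusted p under 0.01. The 4 that fell by more than 2-fold were *Rp1* (-1.48) and *Rp1l1* (-1.44), which encode photoreceptor axoneme proteins, *Tulp1* (-1.29), a trafficking protein of photoreceptors, and *Cep164* (-1.25), a distal appendage protein of the basal body.

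*Tulp3*, which brings receptors into primary cilia by binding IFT-A, was the 1 gene of that list that rose by more than 2-fold. It was at 2.94, 3.30, 3.42, 3.03 and 3.25 FPKM in NL and 5.61, 10.8, 10.1, 6.05 and 6.27 FPKM in LD, with no overlap and with LD-4 and LD-6 highest, a log2 fold change of 1.21 (SE 0.18, limma adjusted p = 6.51e-04). In *Ift57*, by contrast, LD-4 and LD-6 were the lowest LD retinas. By class, the share that fell was 9 of 14 for the basal body and axoneme, 6 of 16 for the other IFT and dynein-2 genes, 3 of 10 for other trafficking genes, 3 of 15 for other transition zone genes and 2 of 3 for other BBSome genes, beside the background of 7.74%.

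**Figure D5:**
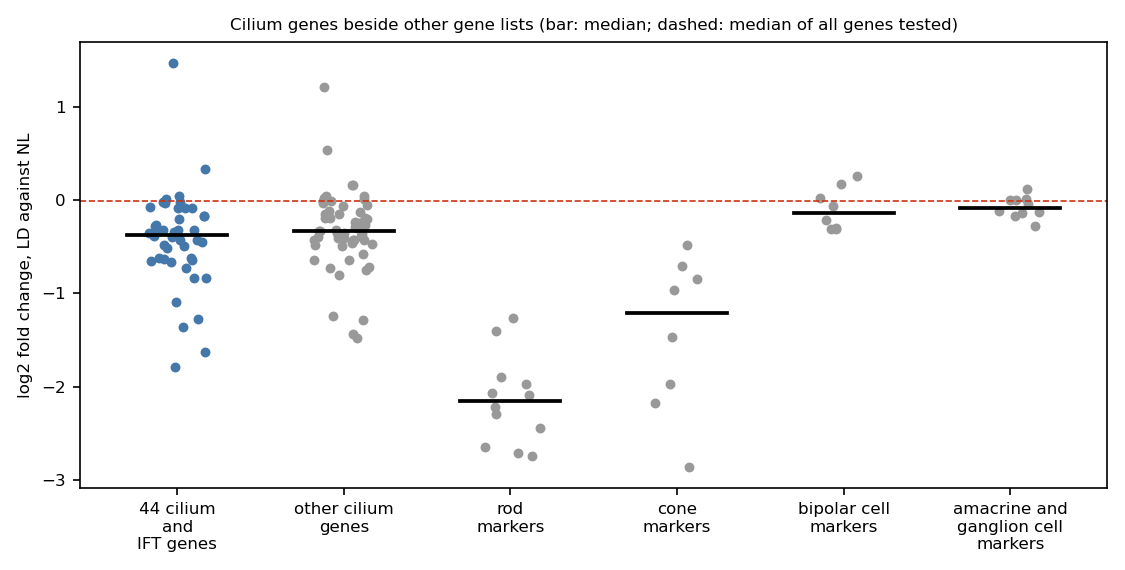
Log2 fold change of LD against NL for each gene (point) of the 44 cilium and IFT genes, the 58 other cilium genes and 4 lists of cell type markers, with a bar at the median of each list and a dashed line at the median of all genes tested. Both cilium lists have medians close together, -0.37 and -0.33, between the rod markers at -2.15 and the bipolar, amacrine and ganglion cell markers near 0.

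Against markers of rods, the decreases of most cilium genes were small. The 12 rod markers had a median log2 fold change of -2.15 and a range of -2.74 to -1.26, and 8 cone markers a median of -1.21 and a range of -2.86 to -0.48, with 4 of the 8 that fell. *Fam161a*, *Rpgrip1*, *Unc119* and *Arl13b* were the cilium genes within the range of the rod markers, and the other 40 lay above it, whereas 16 of the 44 lay within the range of the cone markers. Müller glia markers were mixed, with *Vim* and *Clu* higher and *Glul* lower. None of 10 pigment epithelium markers passed an adjusted p under 0.01 in limma or limma-voom, and 3 had an unadjusted p under 0.05 in limma; their summed level was 55.6 to 163 FPKM in NL and 66.1 to 126 FPKM in LD.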

How the data were processed

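RNA-seq of 5 NL and 5 LD retina samples, which the paper calls biological replicates, was read from 1 deposited table. The authors deposited FPKM values per gene with positions on GRCm38; 54495 identifiers are in GENCODE M21. The submitters' processing notes name TopHat2 2.0.9, Bowtie2 2.0.6 and build mm8, which the positions do not match; libraries were made with a TruSeq kit, a company normalized the data, and the strand of counting is not given in the sources used here. The paper names a HiSeq instrument and the labels a NovaSeq. After multiplication by gene length, 100% of values were whole numbers of reads (tolerance 0.01), and these reads gave the depth. The authors' library size carries a further factor of 0.951 to 0.968 in NL and 1.04 to 1.07 in LD.

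The deposited FPKM were put on a log2(FPKM + 0.1) scale. Genes that reached 0.1 FPKM in 5 or more retinas, 24508 in number, were compared between groups in limma 3.58.1 (R 4.3.3) with an intensity trend and Benjamini-Hochberg adjustment over all of them; fold changes on this scale understate those of low genes. All 44 genes passed the filter. Each gene was also compared by a two-sided exact permutation test over retinas, whose smallest possible p of 0.00794 was reached by all 21 genes without overlap between groups. p-values measure the spread between these samples. In data simulated for this comparison over 24508 genes with 200 changed, 149 were called with the right sign and 2 unchanged genes were called. Above 2 FPKM, 53 of 57 genes changed by 1.5 on the log2 scale and 51 of 51 changed by 2 were called. Smaller changes, such as the median of -0.37 of the 44 genes, were not simulated. Noise was drawn separately for each gene and retina, so the close pairs of retinas were not imitated.

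Values in every retina are given for genes past the adjusted p and 2-fold limits and for those with the largest changes of each role in either direction; the other genes are named with their fold changes, and some were added to show partners or spread after their values were seen. The genes, lists and tests were chosen with earlier results of these data known. Another 29 settings were tried, 23 planned and 6 added after the values were seen. Sequences are from RefSeq, gene overlaps from GENCODE M21. Python 3.11.15, numpy 2.4.6, pandas 2.3.3, scipy 1.17.1 and matplotlib 3.10.9 were used.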

Additional observations from a re-analysis of the deposited data

Results flagged for a closer look

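In 88 groups of 5 values (44 genes in NL and in LD), 1 retina lay far from the rest of its group by Dixon's ratio of gap to range, where chance alone gives about 4.4. *Tmem67* was at 4.61 FPKM in NL-4 and at 5.56 to 5.88 FPKM in the other NL retinas, a ratio of 0.748 against a limit of 0.71. NL-4 was the lowest NL retina in 19 of the 44 genes, and all 5 LD retinas were lower still in *Tmem67*.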

How the results depend on the processing

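Of the 44 genes, *Fam161a*, *Rpgrip1*, *Unc119*, *Arl13b*, *Bbs9*, *Ttc8* and *Cc2d2a* kept their direction and an adjusted p under 0.01 under all 28 other fits. Such a p was lost in 14 of the 28 for *Bbs7*, 12 for *Ift81*, 10 for *Ift122*, 9 for *Bbs1*, 8 each for *Kif3b* and *Tmem67*, 4 each for *Ift80* and *Ift140*, 2 for *Ift74*, and 1 each for *Arl3* and *Ift57*. Counts of genes that fell at an adjusted p under 0.01 (17) went to 9 with TPM scaling, 11 with the closest pairs averaged, and 10 over the 6 retinas without *Xist*; those above 2-fold (5) went to 3 over these 6 retinas. The count that rose went to 2 without the factor per retina, where *Arl6* passed, and that above 2-fold to 0 over the 4 retinas with *Xist*, where *Ift57* was at 0.88. Above 2-fold in either direction, all genes called (1595) numbered 816 with a pseudocount of 1, 1751 with TPM scaling and 979 with pairs averaged. They numbered 947 and 976 in the retinas without and with *Xist*. Fewer samples entered the last 3. How many of all genes fell at an adjusted p under 0.01 with no minimum fold was not counted in the other fits. The changes in the count of 17 therefore have no background beside them. At an adjusted p under 0.05 with no minimum fold, 28 genes were lower, 2 higher and 6818 called in all. With each retina left out in turn, 13 to 20 genes fell, 5 of them above 2-fold, 1 rose, also above 2-fold, and 1285 to 1505 genes were called in all.

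Replicate numbers are shared by 8 retinas. The deviations of same-numbered retinas had correlations over genes of 0.0575, 0.0656, -0.0121 and -0.0893 for numbers 1, 4, 7 and 8. Only NL-4 of these 4 NL retinas correlated best with the LD retina of its number. These correlations show no pairing by number, but 4 of them cannot exclude it. With the replicate block, 9 genes fell, 5 of them above 2-fold, 0 rose, and 815 genes were called. The same 8 retinas without the block gave 12, 5, 1 and 1194 for these counts. *Ift57* had a log2 fold change of 1.56 with an adjusted p of 0.0101 in limma with the block. The SE with and without the block was 0.218 and 0.23 for *Ift57*, 0.108 and 0.126 for *Bbs9*, and 0.143 and 0.18 for *Arl13b*. It was 0.126 and 0.132 for *Arl6*, and 0.144 and 0.139 for *Unc119*.

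Directions turned only in genes that had not passed the test. With TPM scaling and without the factor per retina the log2 fold changes were 0.014 and 0.043 for *Ift20*, 0.015 and 0.044 for *Ift172*, 0.069 and 0.098 for *Kif3a*, 0.085 and 0.11 for *Bbs12*, 0.021 and 0.051 for *Ahi1*, 0.027 and 0.056 for *Iqcb1*, and 0.081 and 0.11 for *Rp2*. With and without the block over the 8 retinas, *Ift52* was at -0.0051 and *Bbs12* at 0.10, and with pairs averaged *Ift52* was at -0.017. Without LD-4 and LD-6, *Ift172* was at 0.038 and *Bbs12* at 0.33; without NL-5 and NL-7, *Ift52* was at -0.031 and *Rp2* at 0.033; without LD-1 and LD-7, *Ift52* was at -0.017, *Ift43* at -0.0089, *Kif3a* at 0.0098 and *Rp2* at 0.0025. Over the retinas without *Xist*, *Ift172* was at 0.059 and *Bbs12* at 0.28, and over those with it *Ift46* was at 0.0014, *Iqcb1* at 0.0037 and *Rp2* at 0.21. With each retina left out in turn, *Bbs12* ranged from -0.17 to 0.11, *Ift52* from -0.017 to 0.040 and *Rp2* from -0.071 to 0.035. Among the other fold changes of single genes, 1084 kept direction and side of the limit, 73 lost and 32 gained an adjusted p under 0.01. The cause of these turns was not tested. Otherwise limits are the unknown mice behind each sample, the close pairs of retinas, and reads shared with overlapping genes.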
